A study of Mus musculus with 12 samples.

Results

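The 84 genes described here encode the proteins of the cytosolic ribosome. They were taken from the 55487 genes of the count table by symbol, as protein-coding genes named Rpl or Rps with a number, plus Rplp0, Rplp1, Rplp2 and Rpsa, with pseudogenes left out. Of these ribosomal protein (RP) genes, 52 belong to the large and 32 to the small ribosomal subunit. A filter on low counts was passed by 83 of the 84, and by 18773 genes in all. The gene that did not pass was Rpl10l, a retrocopy-like relative of Rpl10, which had 0 counts in every library. A count of 0 allows a level of up to 3 counts, at most 0.0830 CPM per library, where CPM are counts relative to the library's total after scaling between libraries.

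RNA was measured in macrophages sorted from mouse hearts 2 days after ischemia/reperfusion injury, with 4 groups of 3 libraries. They were CD45.2 macrophages from the infarct zone, CD45.1 macrophages from the infarct zone, CD45.2 macrophages from the remote zone and CD45.1 macrophages from the remote zone. CD45.2 marks cells of the host (which the paper takes as resident macrophages) and CD45.1 marks cells that grew from transplanted bone marrow (recruited macrophages). The paper gives only a lower bound for the share of donor cells after transplantation. Some CD45.2 cells may thus stem from remaining host marrow, which was not tested. The hosts were adult Mx1Cre Myb flox/flox mice, in which injections of polyI:C delete Myb and so ablate the bone marrow, and the donors were congenic C57BL/6 mice. All 4 groups came from hearts of such chimeras, and CD45.2 cells carry the Mx1Cre and Myb flox/flox alleles while CD45.1 cells do not, so that genotype and population cannot be told apart. The Mx1 promoter responds to interferon and is not restricted to bone marrow. Cells that lacked the surface markers F4/80 and CD64 or carried lineage markers were sorted out. Libraries are named by the numbers that the labels give them (S104 to S115). Nothing says which libraries came from the same heart, so p-values measure the spread between these libraries.

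A ribosome is built from ribosomal RNA and about equal numbers of copies of each RP, and the RP genes are therefore known to be expressed in concert. Most of their mRNAs start with a C followed by a run of pyrimidines, the terminal oligopyrimidine (TOP) tract, through which mTORC1 and the RNA-binding protein Larp1 control their translation. In macrophages, mTORC1 and Myc are known to raise ribosome production when cells grow or are activated.

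Each library held 33253340 to 63435529 counts. On the second principal component, libraries S104 to S107, 1 per group, were separated from the remaining 8, also when RP genes were left out. Transcripts of the Y chromosome were present in 4 libraries (S108 to S111, 1 of each group) and near 0 in the other 8. The 8 macrophage identity genes, with Adgre1 and Fcgr1 for the sorted markers, passed the filter and summed to 17375 CPM or more in every library, and to at most 23765 CPM. Single genes of this list differed between the groups in both directions, as given further on.

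The start sites of the RP genes are shown first because the TOP tract is known to lie there in RP mRNAs. RefSeq start-site entries (GRCm38.p6) were matched for 64 of the 84 RP genes. Printed are 20 bases before to 30 bases after the annotated start, for 8 of the matched genes above 1 CPM. These had the 4 most negative and the 4 least negative differences between CD45.2 and CD45.1 macrophages of the remote zone, described further on. Capitals mark the C with at least 4 further pyrimidines that lies nearest to the start base, which is base 21 of each sequence, and Rpl22 and Rpl7l1 had none in this window.
Rpl36al (chr12:69184038-69184087, minus strand): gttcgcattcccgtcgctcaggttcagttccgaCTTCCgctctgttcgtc
Rps15a (chr7:118116118-118116167, minus strand): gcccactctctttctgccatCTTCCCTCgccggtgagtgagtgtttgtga
Rpl39 (chrX:37085193-37085242, minus strand): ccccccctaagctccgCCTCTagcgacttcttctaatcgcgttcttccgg
Rpl19 (chr11:98026690-98026739, plus strand): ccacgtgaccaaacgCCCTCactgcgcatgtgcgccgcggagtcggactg
Rpl22 (chr4:152325706-152325755, plus strand): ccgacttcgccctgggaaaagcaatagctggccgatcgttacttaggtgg
Rpl31 (chr1:39367831-39367880, plus strand): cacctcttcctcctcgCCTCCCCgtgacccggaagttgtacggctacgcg
Rps27 (chr3:90213619-90213668, minus strand): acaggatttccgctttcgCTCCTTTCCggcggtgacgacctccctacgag
Rpl7l1 (chr17:46782627-46782676, minus strand): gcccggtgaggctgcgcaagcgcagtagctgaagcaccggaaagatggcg

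In Rps15a the tract began exactly at the annotated start, in Rpl31 and Rps27 it ran across it, and in Rpl39 it ended on it. Over all entries, a C followed by at least 4 pyrimidines stood exactly at the start in 13 of the 64 RP genes (20.3%), against 3.01% of 27025 genes. A run of 8 or more pyrimidines within the printed window was found in 34 RP genes (53.1%), against 21.5% of all genes. The motif CCGGAAG, a core that ETS factors are known to bind, lay on either strand of the 300 bases around the start in 26 RP genes (40.6%) and in 9.93% of all genes. The motif AAGATGGC, a core of the YY1 site, was found in 6 RP genes (9.38%) and in 3.19% of all genes. Annotated starts can be off by some bases, so a missing tract says only that these letters were not in this window.

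RP genes took a small share of each library. In the infarct zone their summed counts were 0.636% to 0.754% of all counts in CD45.2 macrophages, against 0.692% to 0.885% in CD45.1 macrophages. In the remote zone they were 0.477%, 0.560% and 0.588% in CD45.2 macrophages, against 0.591%, 0.817% and 0.872% in CD45.1 macrophages. The 3 CD45.2 remote libraries were thus the lowest of the 12, and the highest of them was only just below the lowest CD45.1 remote library, S112. For the infarct zone the means were 0.693% ± 0.0592 in CD45.2 libraries and 0.765% ± 0.105 in CD45.1 libraries, and for the remote zone 0.542% ± 0.0581 in CD45.2 libraries and 0.760% ± 0.149 in CD45.1 libraries (SD, n = 3 each). Both subunits showed the same order of remote-zone means, with 0.342% in CD45.2 libraries and 0.469% in CD45.1 libraries for the large subunit, and 0.200% in CD45.2 libraries and 0.291% in CD45.1 libraries for the small one. Pseudogenes that match an RP gene by name or sequence held another 0.0340% to 0.0463% of the counts.

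**Figure D1:**
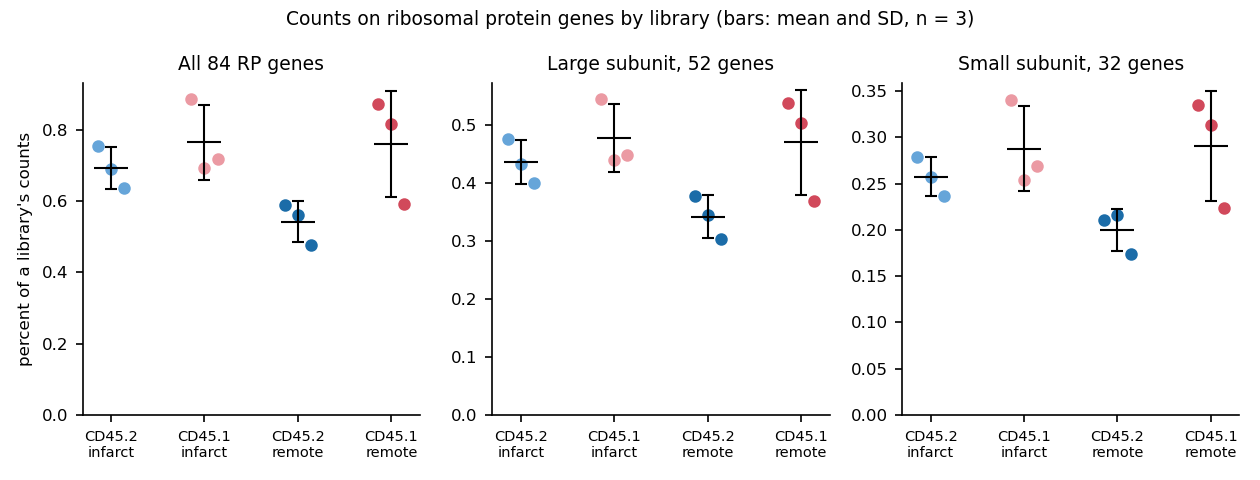
Percent of a library's counts on RP genes (y axis) in the 4 groups (x axis), for all 84 RP genes and for each subunit. Points are libraries, bars give the mean and SD (n = 3), and the CD45.2 remote libraries lie below all others for all RP genes, at 0.477% to 0.588%, and for the small subunit, but overlap for the large subunit, where S106 (CD45.2) is at 0.378% and S112 (CD45.1) at 0.368%.

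Single RP genes differed widely in level. Compared per length of the principal annotated mRNA, the highest mean levels over 12 libraries were those of Rpl13 with 418 ± 87.9, Rps9 with 307 ± 54.2, Rplp0 with 276 ± 55.0, Rpl10 with 252 ± 57.0 and Rpl4 with 229 ± 52.8 CPM per kb (SD, n = 12). Neighbours in this order after Rpl13 differed by less than 1 SD. Rplp0 encodes the stalk protein that anchors Rplp1 and Rplp2, and by CPM it was the 378th of the 18773 genes. The lowest levels among genes that passed the filter were 0.227 ± 0.138 CPM per kb for Rpl3l, 0.234 ± 0.230 for Rpl39l, 5.61 ± 2.19 for Rps15a, 10.6 ± 2.05 for Rps20 and 19.4 ± 5.89 for Rps21. The values of Rps15a and Rps20 rest on annotated mRNAs of 5130 and 3706 bases, the longest of the RP genes, and would be higher with a shorter one. Between 81 RP genes above 1 CPM the median level was 91.8 CPM per kb.

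The RP genes moved together across the libraries. Of the 81 genes above 1 CPM, 54 reached their highest CPM in S105 (CD45.1 infarct) and 21 in S104 (CD45.1 remote), while 63 had their lowest in S114 (CD45.2 remote). S105 and S114 were also the opposite ends of the first principal component of all genes (54.3% of the variance), with or without RP genes. How many other genes had their extremes in these libraries was not counted. The SD of log2 CPM over 12 libraries had a median of 0.37 per gene. Once the mean of the 81 genes was subtracted from each library, the median SD was 0.15. Rpl27a followed this mean most closely, with a remaining SD of 0.05, and Rps27 (0.43), Rps29 (0.37) and Rpl36al (0.29) least. Rps27 had 14.5 CPM in S106 and 46.2 CPM in S110, both CD45.2 remote libraries. Across the 81 genes, mRNA length showed no clear relation to this remaining SD (Spearman's rho = -0.10) or to the remote-zone difference between populations (rho = -0.05). These are descriptions over genes that share libraries.

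**Figure D2:**
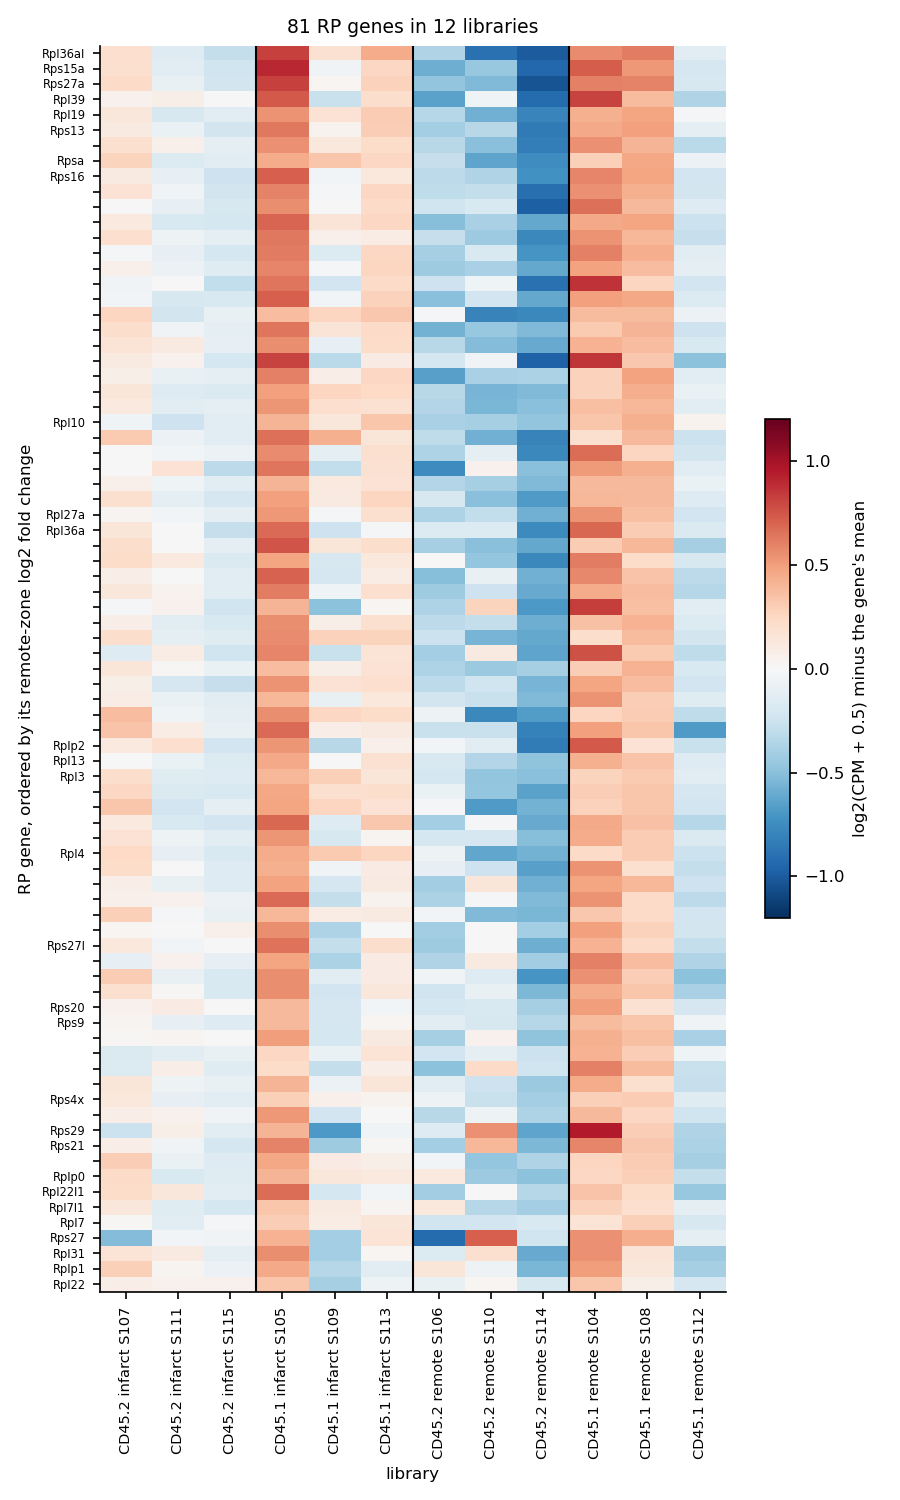
Level of 81 RP genes (rows, those named in the text labelled) in 12 libraries (columns), as log2(CPM + 0.5) minus the mean of the gene. Blue is lower and red is higher. The CD45.2 remote columns are blue in most rows, with S114 the lowest for 63 genes, and S105 is the reddest column, highest for 54 genes.

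The first comparison asked how the 2 populations differ in the remote zone. In CD45.2 macrophages, 39 of the 83 RP genes tested were lower than in CD45.1 macrophages and 0 were higher (edgeR quasi-likelihood test, Benjamini-Hochberg adjusted p under 0.05). This is 47.0% of the RP genes. Over all genes tested, 32.0% passed in this comparison, 15.8% lower and 16.2% higher. The log2 fold change (CD45.2 over CD45.1) was negative for 81 RP genes, with a median of -0.60, and the median over all genes was 0.04. Of the large subunit 21 of 51 and of the small subunit 18 of 32 genes fell, with medians of -0.57 and -0.63. DESeq2 called 49 RP genes, with 37.6% of all genes, and limma-voom 52, with 39.8% of all genes, all of these RP genes lower. The 3 libraries of each population did not overlap for 35 RP genes (42.2%), all lower in CD45.2, against 20.2% lower and 21.9% higher over all genes. Other abundant genes also leaned this way. Among 1871 other protein-coding genes with a mean of at least 100 CPM, 33.0% were lower and the median was -0.20. Among 404 other protein-coding genes with mRNAs under 700 bases, 16.8% were lower and the median was -0.17. In these bulk libraries, fewer cells of a type and less RNA per cell cannot be told apart.

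Rpl36al had the most negative log2 fold change. This autosomal relative of the X-linked Rpl36a encodes a large subunit protein and lies on chromosome 12 (69182731 to 69184083, GRCm38). Its CPM were 55.9, 38.6 and 35.7 in CD45.2 remote macrophages (S106, S110 and S114), against 106.8, 110.3 and 65.8 in CD45.1 remote macrophages (S104, S108 and S112). The libraries did not overlap, and the log2 fold change was -1.12 ± 0.24 (SE, edgeR adjusted p = 0.00484). Its exons are shared with Gm49383.

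Small subunit genes made up 6 of the next 7 calls. Rps15a (chromosome 7, 118104372 to 118116188) had 17.7, 19.6 and 13.7 CPM in CD45.2 remote macrophages, against 44.9, 38.7 and 23.4 CPM in CD45.1 remote macrophages, with a log2 fold change of -1.07 ± 0.28 (edgeR adjusted p = 0.0131). Rps27a, which encodes a small subunit protein fused to ubiquitin, had 36.4, 34.9 and 24.5 CPM in CD45.2 remote macrophages, against 77.3, 76.9 and 44.4 CPM in CD45.1 remote macrophages. Its log2 fold change was -1.05 ± 0.26 (edgeR adjusted p = 0.00922), and it shares exons with Clhc1. In both genes S112 was closest to the CD45.2 libraries and S114 was the lowest.

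Rpl19 of the large subunit had 110.6, 93.9 and 80.7 CPM in CD45.2 remote macrophages, against 188, 195 and 138 CPM in CD45.1 remote macrophages, a log2 fold change of -0.87 ± 0.17 (edgeR adjusted p = 0.00235). Rpsa, a small subunit protein also known as the laminin receptor, had 117, 91.2 and 84.2 CPM in CD45.2 remote macrophages, against 173, 196 and 135 CPM in CD45.1 remote macrophages. Its log2 fold change was -0.78 ± 0.17 (edgeR adjusted p = 0.00519). Rps13 with -0.83 and Rps16 with -0.78, both of the small subunit, were also among the 8 most negative calls. Their CPM did not overlap between the populations.

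Rpl10, which encodes a large subunit protein known to join late in ribosome assembly, had the smallest adjusted p. It had 150, 149 and 141 CPM in CD45.2 remote macrophages, against 247, 264 and 203 CPM in CD45.1 remote macrophages (log2 fold change -0.70 ± 0.12, edgeR adjusted p = 0.00113). Its CD45.2 libraries lay within 10 CPM of each other, and all 3 CD45.1 libraries stood above them. Rpl10 is X-linked, on X from 74270812 to 74273135. The other X-linked RP genes had log2 fold changes of -0.88 for Rpl39, -0.68 for Rpl36a and -0.41 for Rps4x, with adjusted p of 0.0618, 0.0929 and 0.0516 (edgeR), and did not pass.

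At the other end, the abundant stalk gene Rplp0 had 398, 272 and 261 CPM in CD45.2 remote macrophages, against 438, 450 and 301 CPM in CD45.1 remote macrophages. These values overlap, and its log2 fold change of -0.35 ± 0.20 did not pass (edgeR adjusted p = 0.206). Rpl22 had the value nearest to 0 of the RP genes above 1 CPM, with 16.5, 17.8 and 15.3 CPM in CD45.2 remote macrophages and 22.2, 18.4 and 15.1 CPM in CD45.1 remote macrophages (log2 fold change -0.17 ± 0.19, edgeR adjusted p = 0.517). Rplp1, which pairs with Rplp2 in the stalk, followed with -0.26 ± 0.26. The positive values were those of Rpl3l and Rpl39l, which hold few counts.

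**Figure D3:**
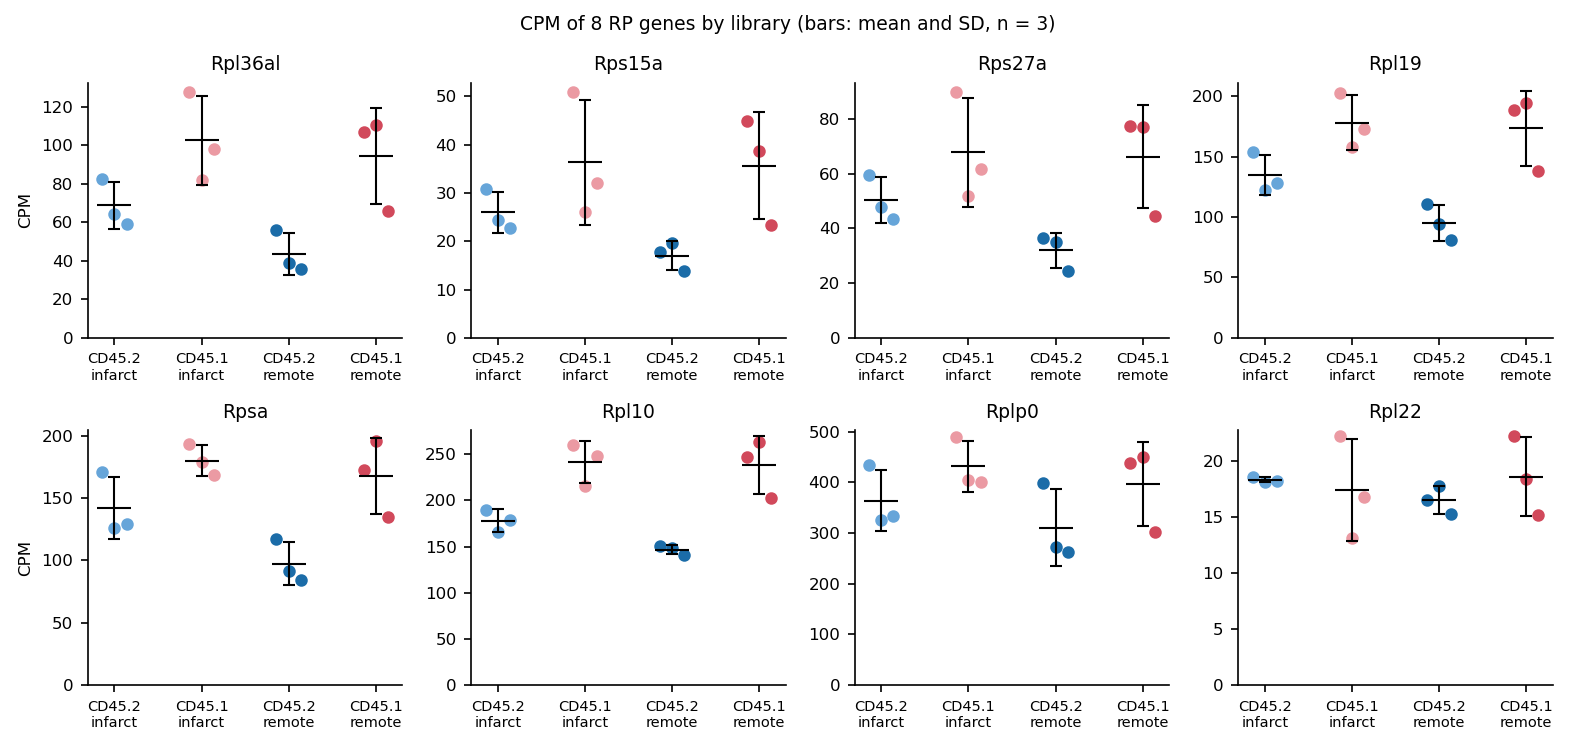
CPM of 8 RP genes (y axes from 0) in the 4 groups (x axis), with points for libraries and bars for the mean and SD (n = 3). In the remote zone the populations do not overlap for Rpl36al, Rps15a, Rps27a, Rpl19, Rpsa and Rpl10, and overlap for Rplp0 and Rpl22.

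The number of calls in the remote zone depended on single libraries. Without S104 it was 12 of the RP genes, without S108 13 and without S114 13, each also called with all libraries, and without S112 it was 66. The median log2 fold change stayed negative, between -0.78 and -0.44 over all alternatives. At the threshold of 0.05, 12 RP genes passed under every alternative, among them Rpl36al, Rps27a, Rpl19, Rps13, Rpsa and Rpl10.

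Markers of other cells moved with the populations as well. In the remote zone, 9 of 11 heart muscle genes tested were higher in CD45.2, and the 12 listed summed to 57.0 to 132 CPM in CD45.2 remote macrophages, against 18.2 to 27.4 CPM in CD45.1 remote macrophages. The 9 neutrophil genes, of which 4 were tested and 1 (Mmp8) was lower, summed to 4.18 to 6.80 CPM in CD45.2 remote macrophages, against 80.5 to 137 CPM in CD45.1 remote macrophages. The 10 fibroblast genes, of which 1 was higher, summed to 143 to 505 CPM in CD45.2 remote macrophages, against 17.9 to 110 CPM in CD45.1 remote macrophages. The 8 dendritic cell genes, of which 3 were higher and 1 lower, summed to 31.9 to 51.5 CPM in CD45.2 remote macrophages, against 7.20 to 14.3 CPM in CD45.1 remote macrophages. Of the lymphocyte genes 1 of 7 tested was higher and 1 lower, and 0 of the endothelial (10 tested), smooth muscle (6 tested) and red cell genes (5 tested) passed. The sums of these 4 lists overlapped between the populations. None of the listed markers was at 0 in all libraries. The part of these cells in the RP gene values was not tested.

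The same question was asked in the infarct zone. There 1 of the 83 RP genes was lower in CD45.2 than in CD45.1 macrophages and 0 were higher, against 19.5% of all genes, 7.56% lower, which were 1419 genes lower and 2247 higher. DESeq2 called 1 RP gene (25.6% of all genes) and limma-voom 14, all lower (35.6% of all genes). Of 1871 other protein-coding genes with a mean of at least 100 CPM, 19.8% were lower and 9.57% higher. The median log2 fold change was -0.26 for the RP genes, with 79 negative values, -0.19 for these other abundant genes and 0.04 for all genes. The gene that fell was Rpl10, with 190, 165 and 179 CPM in CD45.2 infarct macrophages (S107, S111 and S115), against 260, 216 and 248 CPM in CD45.1 infarct macrophages (S105, S109 and S113). The libraries did not overlap, and its log2 fold change was -0.44 ± 0.12 (edgeR adjusted p = 0.0243). It did not pass when S105, S111, S113 or S115 was left out, and without S107 the calls were 2. A covariate for libraries S104 to S107 gave 8 calls, 7 lower and 1 higher (29.1% of all genes), and one for Y-linked transcripts added to it 10, all lower (30.6% of all genes).

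The genes that led in the remote zone had smaller values here and did not pass. Rpl36al had 82.6, 64.4 and 59.0 CPM in CD45.2 infarct macrophages, against 127, 81.7 and 98.0 CPM in CD45.1 infarct macrophages (log2 fold change -0.58 ± 0.24, edgeR adjusted p = 0.12). Rpl19 had -0.40 ± 0.17 and Rps15a -0.48 ± 0.28. The libraries of the populations did not overlap for 13 RP genes lower in CD45.2 and 1 higher (Rpl39l), against 19.5% lower and 21.8% higher over all genes. Among the other protein-coding genes of at least 100 CPM, these shares were 40.9% lower and 15.1% higher. An unadjusted p under 0.05 was reached by 10 RP genes, all lower. In heart muscle genes, 7 of 11 tested, the CD45.2 infarct libraries were also higher than the CD45.1 ones. The sums were 45.6 to 110 CPM in CD45.2 against 19.5 to 27.4 CPM in CD45.1. The 9 neutrophil genes, of which 4 were tested and 1 was lower, summed to 21.9 to 31.7 CPM in CD45.2 against 96.6 to 143 CPM in CD45.1. Sums did not overlap for the dendritic cell genes (3 of 8 tested higher), with 17.6 to 28.4 CPM in CD45.2 against 7.15 to 11.3 CPM in CD45.1, or for the lymphocyte genes (1 of 7 higher), with 11.7 to 26.7 CPM in CD45.2 against 4.63 to 8.47 CPM in CD45.1. Of the fibroblast genes 1 of 10 and of the smooth muscle genes 1 of 6 tested was higher, and 0 endothelial and red cell genes passed, with sums that overlapped for these 4 lists. The part of these cells was not tested here either.

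**Figure D4:**
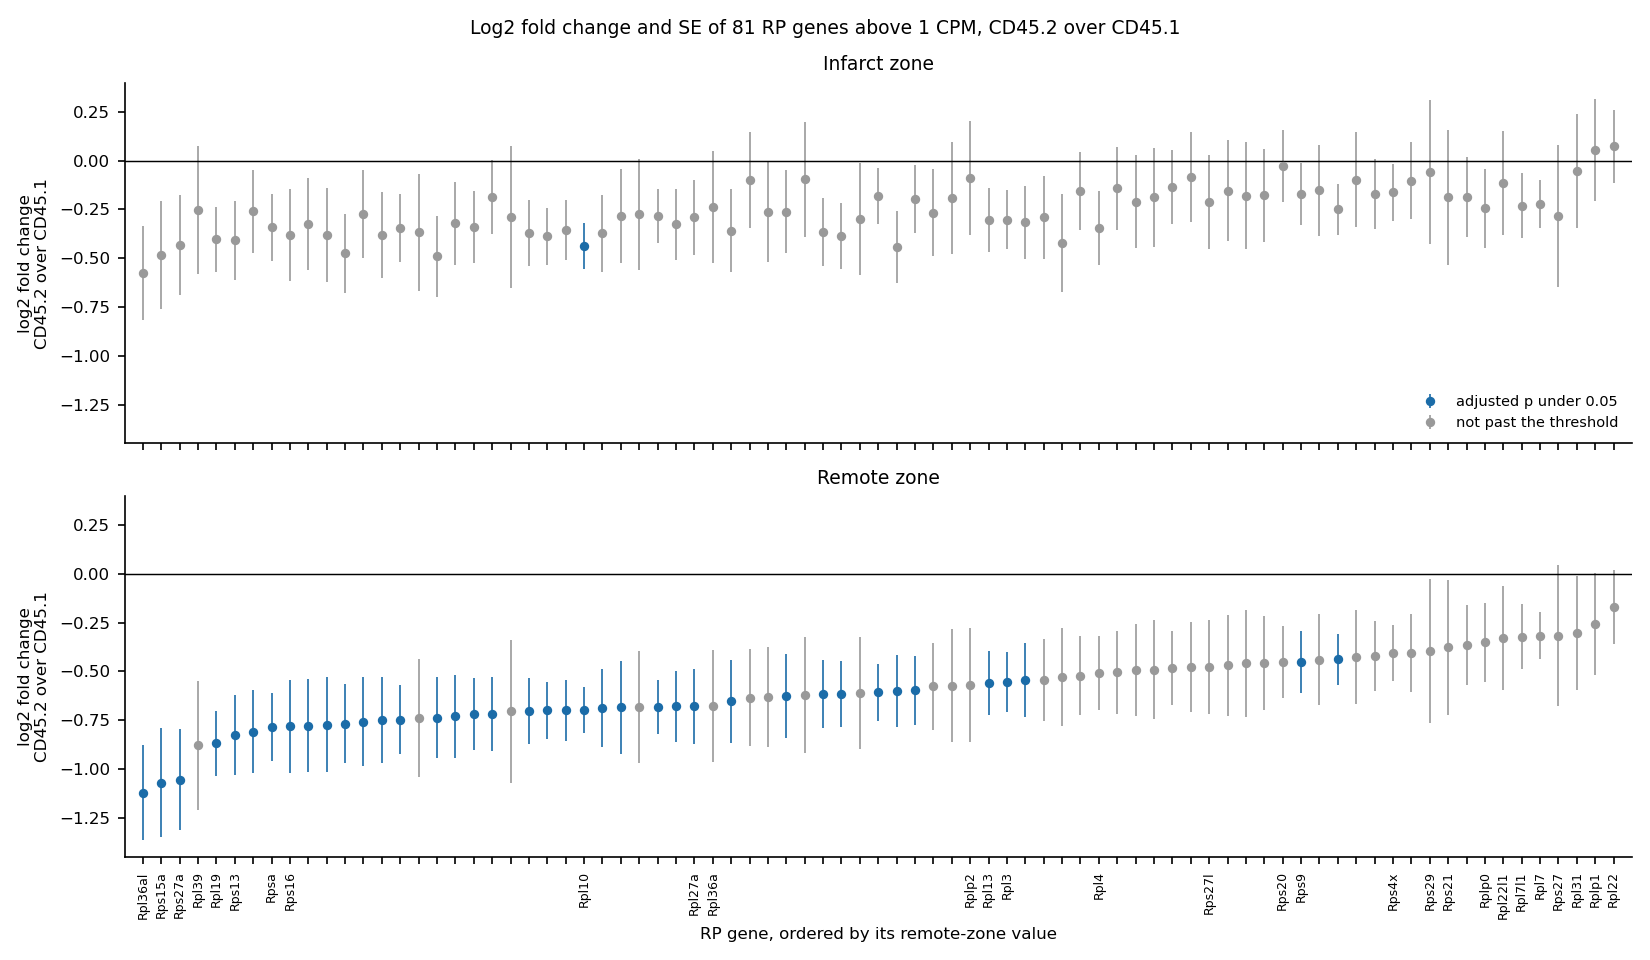
Log2 fold change of CD45.2 over CD45.1 macrophages (y axis, points with SE) for 81 RP genes ordered by their remote-zone value (x axis, those named in the text labelled), in the infarct zone above and the remote zone below. Blue points passed an adjusted p of 0.05, which 1 (Rpl10) did in the infarct and 39 in the remote zone.

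The second pair of comparisons set the infarct zone against the remote zone within a population. In CD45.2 macrophages 0 of 83 RP genes passed, against 1.76% of all genes (1.46% higher, 0.293% lower), and an unadjusted p under 0.05 was reached by 25 RP genes, all higher in the infarct zone. DESeq2 called 1 RP gene (Rpsa), against 6.15% of all genes, and limma-voom 0, against 3.59%. The log2 fold change, infarct over remote zone, was positive for 80 of the 83 genes, with a median of 0.34 against 0.02 over all genes. For 40 RP genes (48.2%) the 3 infarct libraries all lay above the 3 remote ones, against 10.0% of all genes, and for 0 RP genes they all lay below, against 8.93%. Rpsa had 171, 126 and 129 CPM in CD45.2 infarct macrophages, against the 117, 91.2 and 84.2 CPM in CD45.2 remote macrophages (log2 fold change 0.54, edgeR adjusted p = 0.151). Rpl36al had the largest value of the genes above 1 CPM (log2 fold change 0.66). Neither gene passed. Without S106, 3 RP genes passed. With a covariate for libraries S104 to S107, which stood apart, 7 RP genes passed (5.97% of all genes), and with one for Y-linked transcripts added 13 did (7.76% of all genes), all higher in the infarct zone. These covariates together fit the sets S104 to S107, S108 to S111 and S112 to S115, each with 1 library per group. Within them, RP genes took 0.754%, 0.690% and 0.636% of the counts in CD45.2 infarct macrophages (S107, S111 and S115), against 0.588%, 0.560% and 0.477% in CD45.2 remote macrophages (S106, S110 and S114), so that the infarct library was the higher one in all 3 sets. This comparison and that of the populations in the remote zone share the CD45.2 remote libraries, which were the lowest. Marker sums in CD45.2 macrophages differed as well. Neutrophil genes (1 of 4 tested higher) summed to 21.9 to 31.7 CPM in the infarct zone, against 4.18 to 6.80 in the remote zone. Dendritic cell genes (0 of 8 called) summed to 17.6 to 28.4 against 31.9 to 51.5 CPM. Macrophage identity genes (1 of 8 lower) summed to 18416 to 21196 against 21737 to 23765 CPM. Sums of the other lists overlapped, and the part of other cells was not tested.

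In CD45.1 macrophages, 0 RP genes passed, as did 0.00% of all genes, and 0 had an unadjusted p under 0.05 (edgeR). DESeq2 and limma-voom gave the same counts of 0 RP genes, where they called 1.01% and 0.00% of all genes. The median log2 fold change, infarct over remote zone, was 0.02, and 36 of 83 values were negative. No RP gene had libraries that did not overlap between the zones, against 7.04% higher and 8.50% lower over all genes. Rpl10 had 260, 216 and 248 CPM in CD45.1 infarct macrophages, against 247, 264 and 203 CPM in CD45.1 remote macrophages. The mean log2 CPM of 81 RP genes had an SD of 0.38 among the CD45.1 remote libraries.

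Whether the zones act differently on the populations was tested as the difference of the zone effects (CD45.2 minus CD45.1). It was positive for 82 of 83 RP genes, with a median of 0.33 against 0.04 over all genes. Other protein-coding genes with short mRNAs also leaned this way. The median was 0.24 for 404 genes with mRNAs under 700 bases (294 positive) and 0.19 for 624 of 700 to 1000 bases (451 positive). Among 1871 other genes of at least 100 CPM it was 0.04. No RP gene passed, as did 0.00% of all genes, and 0 RP genes had an unadjusted p under 0.05 (edgeR). DESeq2 also called 0 RP genes, against 0.868% of all genes, with 0 RP genes at an unadjusted p under 0.05. The counts with limma-voom were 0 RP genes called, against 0.133% of all genes, and 13 at an unadjusted p under 0.05. A zone effect on RP genes that differs between the populations was therefore not shown.

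Relatives of RP genes gave a mixed picture. Rpl36al exceeded Rpl36a by 3.09 to 7.07 times in CPM over the 12 libraries. In the infarct zone this ratio was 5.02 ± 0.386 for CD45.2 and 6.54 ± 0.818 for CD45.1, and in the remote zone 4.01 ± 0.798 for CD45.2 and 5.45 ± 0.844 for CD45.1 (SD, n = 3 each). Rps27l exceeded Rps27 by 1.11 to 2.92 times. Rpl22l1 reached 0.578 to 0.939 times the CPM of Rpl22, and Rpl7l1 0.742 to 1.12 times that of Rpl7. None of Rpl22l1, Rpl7l1 and Rps27l passed in any comparison of the main test. Rpl3l, a relative of Rpl3 known from heart and skeletal muscle, had 4 to 37 counts per library, with 0.246, 0.760 and 0.554 CPM in CD45.2 remote macrophages and 0.134, 0.250 and 0.294 CPM in CD45.1 remote macrophages (log2 fold change 1.19, edgeR adjusted p = 0.166). Rpl39l, known from mouse testis, had 0 to 36 counts per library and did not pass either. Relatives with near-identical sequences can share reads, so the split between them is uncertain.

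Outside the symbol rule, Fau, which encodes a small subunit protein fused to a ubiquitin-like one, and Rack1, a scaffold on the small subunit, were also lower in CD45.2 macrophages of the remote zone. Their log2 fold changes there were -0.66 and -0.73, and neither passed in the infarct zone. Of 19 other mRNAs known for TOP starts, 9 were lower (47.4%, against 15.8% of all genes) and 0 higher in the remote zone, and 6 lower (31.6%, against 7.56%) and 0 higher in the infarct zone. The smallest adjusted p were those of Tpt1, Eif3k and Btf3. Tpt1 averaged 141 ± 9.18 CPM in CD45.2 remote macrophages, against 270 ± 38.6 CPM in CD45.1 remote macrophages (SD, n = 3 each), with a log2 fold change of -0.94 there (edgeR adjusted p = 6.46e-04) and of -0.50 in the infarct zone (edgeR adjusted p = 0.0324). Eif3k had -0.86 and Btf3 -0.84 in the remote zone.

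The counts of the lists that follow stand beside 15.8% lower and 16.2% higher over all genes in the remote zone, and 7.56% lower in the infarct zone. Among 28 translation initiation factors, 16 were lower and 0 higher in CD45.2 remote macrophages, led by Eif2s1 with a log2 fold change of -1.02, the cap-binding Eif4e with -0.97 and Eif1a with -0.72, and 4 were lower in the infarct zone. The list of elongation factors also holds genes that are not elongation factors themselves, such as Eef2k. Of its 10 genes tested, 2 fell and 2 rose in the remote zone, near the shares of all genes. Those that fell were Eef1a1, which brings aminoacyl-tRNA to the ribosome (-0.62), and Eef1e1 (-1.17). Those that rose were Eif5a2 (0.76) and Eef2k, the kinase that inhibits the elongation factor Eef2. Eef2k averaged 76.6 ± 5.60 CPM in CD45.2 remote macrophages, against 23.8 ± 7.06 CPM in CD45.1 remote macrophages (log2 fold change 1.69, edgeR adjusted p = 7.80e-05, n = 3 each).

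Some of the genes that make ribosomes were lower too. Of 60 assembly factors, 22 were lower (36.7%) and 2 higher in CD45.2 remote macrophages, against 33.0% lower among other genes of at least 100 CPM, with a median log2 fold change of -0.41, and 8 were lower in the infarct zone, where the median was -0.43. Heatr1, needed for early processing of ribosomal RNA, averaged 59.4 ± 15.9 CPM in CD45.2 remote macrophages, against 168 ± 12.4 CPM in CD45.1 remote macrophages (log2 fold change -1.50, edgeR adjusted p = 1.14e-04, n = 3 each), followed by Rrp1b (-1.33) and Rpf2 (-0.84). Of 21 genes of RNA polymerase I and rDNA transcription, 7 were lower (33.3%) and 0 higher, among them the largest subunit Polr1a (-1.03), Polr1e (-0.94) and the initiation factor Rrn3 (-0.46). Among 26 regulators linked to mTORC1 and Myc, 7 were lower and 2 higher, and the median of -0.07 lay near that of all genes. The regulators with the smallest adjusted p were Deptor, an inhibitor of mTOR (1.17), and the Myc antagonists Mxd1 (-2.06) and Mxi1 (-0.51). Of 78 mitochondrial ribosomal proteins, which serve another ribosome, 25 were lower and 0 higher, with a median of -0.41, and Mrpl54 (-1.06), Mrpl36 (-0.81) and Mrpl4 (-0.63) had the smallest adjusted p.

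**Figure D5:**
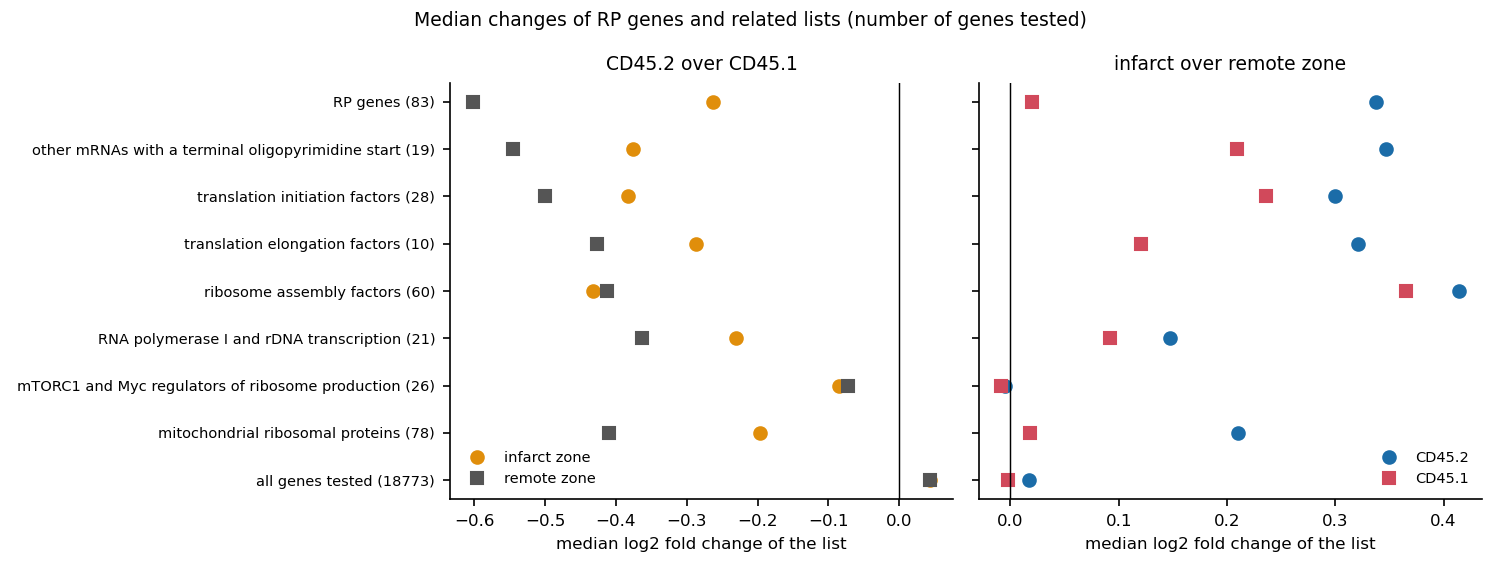
Median log2 fold change (x axes) of RP genes and related lists (rows, with the number tested), for CD45.2 over CD45.1 macrophages on the left and infarct over remote zone on the right. RP genes stand at -0.26 in the infarct and -0.60 in the remote zone on the left, and at 0.34 for CD45.2 and 0.02 for CD45.1 on the right.

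Between the zones, 0 genes of these lists passed in CD45.2 or in CD45.1 macrophages, and 0 passed for the difference of the zone effects. The assembly factors had a median (infarct over remote zone) of 0.41 for CD45.2 and 0.37 for CD45.1, where that of the RP genes was 0.34 for CD45.2 and 0.02 for CD45.1. The remote-zone values of RP genes differed little by whether a TOP tract stood exactly at the annotated start. The median log2 fold change was -0.64 for 13 RP genes above 1 CPM with a tract there and -0.62 for 48 without one there. Of these, 6 and 23 were lower in CD45.2. Annotated starts can be off by some bases, so this split cannot separate mRNAs with a TOP tract from mRNAs without one. With CCGGAAG the median was -0.63 (25 genes) and without it -0.62 (36 genes). The 6 genes with AAGATGGC had a median of -0.36, with 2 lower, and the 55 without it one of -0.63, with 27 lower. RP genes that share exons with another gene had a median of -0.63, with 23 of 39 lower, and those that share none had -0.54, with 16 of 44 lower.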

How the data were processed

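The authors deposited 1 table of raw counts of 55487 genes in 12 libraries, made by SMART-Seq from sorted cells. Per the study's methods and the submitters' notes, HISAT2 2.2.1 mapped the reads to GRCm38.p6, and they were counted with featureCounts of Subread 2.0.1, without strand, with primary alignments and a pair counted for every gene overlapped by at least 5 bases. Reads of RP genes can thus land on pseudogenes or on genes sharing exons, as 39 RP genes do. The deposited Length column was used for length trends only. Libraries held 33253340 to 63435529 counts (intervals and floors cover counting error only).

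Symbols, positions and mRNA lengths came from GENCODE M21 (55141 genes named). RP members and the 8 other lists of genes and 9 marker lists were chosen with earlier results of these data known. In R 4.3.3, edgeR 4.0.16 fitted 1 mean per group after filterByExpr (at least 10 counts in enough libraries, 15 in all) and TMM scaling, with quasi-likelihood tests and Benjamini-Hochberg adjustment over 18773 genes in each of 5 comparisons. For SE, the size of the log2 fold change was set over the root of its F statistic. CPM use TMM-scaled library sizes. Named RP genes were, per comparison, up to 8 calls with the largest change in each direction, the 5 highest and lowest per length, relatives, X-linked genes and genes that did not pass the filter, and for other lists the 3 smallest adjusted p. RP genes quoted as a contrast, and Fau and Rack1, were added to these. Values of some single genes, and so the tally of 1 list, are not reported here. The mRNA used was the one with the best APPRIS tag and transcript support, then the shortest. Pseudogenes were matched with BLAST+ 2.17.0 at 80% identity over 50% of their length.

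Alternatives were DESeq2 1.42.0, its size factors in edgeR, limma-voom (limma 3.58.1), scaling without RP genes, no filter, the 6 compared libraries only, length and abundance trends as offsets, pseudogene counts added, S104 to S107 left out or as a covariate, a threshold of 0.01, and each library left out in turn. Adding pseudogenes matched by sequence, and a covariate for Y-linked transcripts beside that for S104 to S107, were chosen after seeing the data. The fit was tested on simulated data in which genes were drawn independently, so this test does not cover genes that shift together.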

Additional observations from a re-analysis of the deposited data

How the results depend on the processing

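The 39 calls in the remote zone became 12 at an adjusted p under 0.01, and 12 to 66 when 1 library was left out. All other alternatives gave 27 to 57, 0 of them higher. The 1 call in the infarct zone (Rpl10) became 0 at an adjusted p under 0.01, 14 with limma-voom, 2 with the length trend, 0 with the abundance trend, 0 without S104 to S107, 8 with a covariate for those libraries (7 lower, and Rpl39l higher) and 10 with the covariate for Y-linked transcripts added, and 0 to 2 when 1 library was left out. The 0 calls between zones in CD45.2 became 1 with DESeq2, 7 with the covariate for S104 to S107 and 13 with that for Y-linked transcripts added, all higher in the infarct zone, and 0 to 3 when 1 library was left out. In CD45.1 and for the difference of the zone effects, all alternatives gave 0. The cause of these shifts was not tested. No median or share of counts moved by more than the spread between libraries, and no called RP gene changed sign. No library numbers or animal labels are shared between groups, so no pairing came from the labels. The covariates for S104 to S107 and Y-linked transcripts together act as a block on 3 sets of consecutive libraries, each with 1 library of every group.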
